A study of Drosophila melanogaster with 6 samples.

Results

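The BEAF-32 peaks on the X chromosome were all rows of the deposited peak list whose sequence name is exactly chrX. They numbered 577 of the 2609 peaks in the list (22.1%). They are set beside the 383 peaks of arm 2L, the 504 of 3L and the 607 of 3R. The peaks came from chromatin immunoprecipitation followed by sequencing (ChIP-seq) of wing imaginal discs, the sheets of larval epithelium from which the adult wing and part of the thorax develop. The larvae were third-instar animals of the wild-type strain that the labels spell Orgon R (Oregon R). The protocol used 200 dissected discs, which were fixed with 1% formaldehyde for 10 min. By the sample titles, 4 libraries were BEAF-32 ChIP, for which the antibody recognises the isoform BEAF-32B, and 2 libraries were input chromatin. The labels give no sex for the larvae, and no tissue with changed BEAF-32 was part of the samples used here.

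BEAF-32 (boundary element-associated factor) is an insulator protein of Drosophila. It was first described through its binding to the scs' boundary element at the hsp70 locus, and it recognises clustered CGATA motifs. Its binding sites are known to lie mostly close to transcription start sites of active genes, often between genes that point away from each other, and in the interbands of polytene chromosomes. The X chromosome is the sex chromosome that the dosage compensation complex hypertranscribes in males, and loss of BEAF function is known to disturb the structure of the male polytene X.

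The list gives a start and an end for each peak, and no score, height or value per library. The spread between the 4 ChIP libraries, the level in the 2 input libraries and the depth behind a peak were therefore not measured. There is 1 X chromosome and 1 list, so no p-value is given here. Intervals are exact Poisson 95% intervals for densities, Wilson 95% intervals for shares and exact order-statistic 95% intervals for medians. They cover counting only and take peaks as independent, which close neighbours are not. The length of an arm was taken as the end coordinate of its outermost peak, which is at most its true length, and positions are those of the list, in the build whose sequence names are those of Release 5, with starts counted from 1. The genes and the DNA sequence at the peaks were not analysed here.

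The X peaks extended from chrX:33490-33973, at the telomere end, to chrX:22213097-22213790, at the centromere end. Both were among the most isolated peaks of the chromosome. The first lay 486 kb from the next peak, and the last lay 268 kb from the one before it. On 2L, 3L and 3R the first peak had its neighbour at 47.5, 22.4 and 113 kb. The last peak had it at 282, 349 and 191 kb, so an isolated peak at the high-coordinate end was found on all 4 arms. The X peaks covered 400 kb, or 1.80% of the 22.2 Mb of X, against 1.19% of 2L, 1.56% of 3L and 1.61% of 3R. No neighbouring X peaks overlapped.

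Along X, the middle parts of the chromosome carried more peaks than the part at its telomere end, which takes in much of a sparse region described below. With X divided into 5 equal segments of 4.44 Mb, counted from the telomere end, segment 1 held 83 peaks, or 18.7 per Mb (14.9 to 23.2). Its full 1-Mb windows held 15, 24, 23 and 16 peaks from the telomere end, so counts did not rise steadily from the telomere. The sparse region begins within this segment. Segment 2 held 112 peaks (25.2 per Mb, 20.8 to 30.3) and segment 3 held 135 (30.4 per Mb, 25.5 to 36.0). Segments 4 and 5 held 130 and 117 peaks (29.3 per Mb, 24.4 to 34.7, and 26.3 per Mb, 21.8 to 31.6). The interval of segment 1 overlapped neither that of segment 3 nor that of segment 4, while those of segments 2 to 5 all overlapped each other. Counts along X varied more than counting error gives, as described below. These intervals are therefore too narrow, and cannot show whether the segments differ beyond that variation.

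The 50% point of the X peaks fell on the centromere side of the middle, at 12.5 Mb, or 56.4% of the length from the telomere end. On 2L and 3L, whose coordinates also start at the telomere, this point was at 42.7% and 42.4%, and on 3R, whose coordinates start near the centromere, at 48.7%. The first segment of 3L was the fullest of that arm, with 134 peaks (28.8 per Mb, 24.1 to 34.1), where the first segment of X was its emptiest. On 3R the segment at the telomere end, segment 5, was also the emptiest of its arm, with 100 peaks (18.0 per Mb, 14.6 to 21.9). In the outermost 2 Mb at the telomere end, laid from the outermost peak, X had 41 peaks against an average of 51.9 per 2 Mb of X. The same end held 69 peaks against 33.5 on 2L, 58 against 43.4 on 3L and 39 against 43.7 on 3R. At the centromere end X had 37 peaks, fewer than at its telomere end. No interval was computed for these counts at the ends, so whether they differ from the average beyond counting error was not tested.

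In windows of 1 Mb, X held 26.2 ± 8.81 peaks (SD, 22 windows), with a lowest count of 12, a median of 25.5 and a highest count of 44. The highest counts on 2L, 3L and 3R were 46, 43 and 34, close to or below that of X, while their lowest counts were 5, 9 and 6. X stood further from the other arms at the low end of its windows than at the high end. The quartiles were 21.2 and 31.2 peaks on X, 7.50 and 22.8 on 2L, 15.5 and 25.5 on 3L, and 14.0 and 29.5 on 3R. Relative to the mean, the windows of X varied least of the 4 arms, with a coefficient of variation of 0.337 against 0.629 on 2L, 0.407 on 3L and 0.398 on 3R. Their variance was still 2.97 times their mean, above the value of 1 that counting error alone gives. With windows shifted by 500 kb this ratio was 3.87 on X, a setting not computed for the other arms. In windows of 100 kb X did not vary least: the coefficient of variation was 1.04 on X and on 3R, 1.27 on 2L and 1.19 on 3L.

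**Figure D1:**
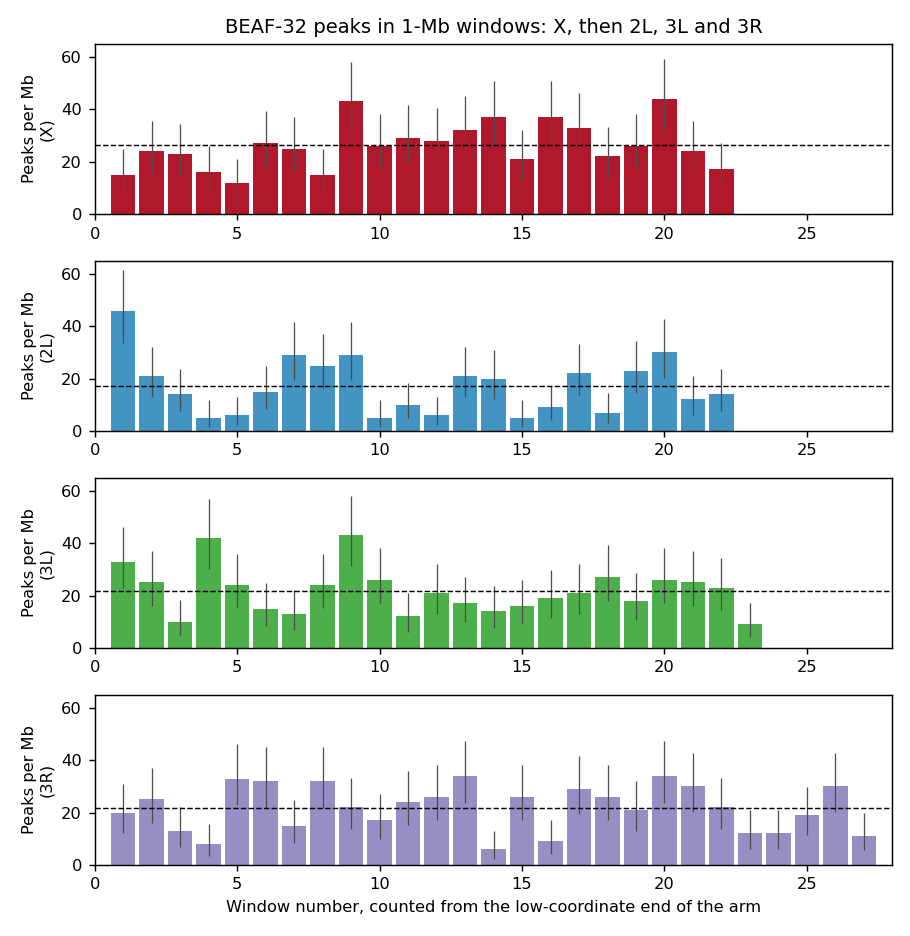
Peaks in each full 1-Mb window of X, 2L, 3L and 3R (bars), numbered from the low-coordinate end of the arm, with exact Poisson 95% intervals (grey lines) and the arm's mean (dashed line). The lowest window of X holds 12 peaks, while 2L, 3L and 3R have windows with 5, 9 and 6.

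The fullest X window was chrX:19000001-20000000 with 44 peaks, followed by chrX:8000001-9000000 with 43. Windows chrX:13000001-14000000 and chrX:15000001-16000000 tied for the next place with 37 peaks each. The emptiest was chrX:4000001-5000000 with 12 peaks (6.20 to 21.0), and chrX:1-1000000 and chrX:7000001-8000000 held 15 each. Window 8 of X, with 15 peaks, thus stood directly before window 9, with 43. Over 21 pairs of windows, the rank correlation (Spearman's rho) between the counts of adjacent 1-Mb windows of X was 0.05. This describes windows that share 1 chromosome at 1 placement, and cannot show whether full or empty windows form blocks. With windows shifted by 500 kb, the fullest was chrX:15500001-16500000 with 49 peaks and the emptiest chrX:2500001-3500000 with 9. The shifted windows directly after the emptiest, chrX:3500001-4500000 with 17 peaks and chrX:4500001-5500000 with 11, were the next emptiest.

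At the scale of 100 kb the chromosome was a mix of empty and full windows. Of 222 windows on X, 59 held no peak (26.6%, 21.2 to 32.7%), against 34.6% on 2L, 28.4% on 3L and 28.1% on 3R. A single peak was found in 38 of the 222 windows of X, against 64 of 228 on 2L, 59 of 232 on 3L and 54 of 278 on 3R. As a share of windows, 3R was thus close to X. At the other extreme, 28 windows of X (12.6%) held 6 or more peaks, and these windows carried 225 peaks, 39.1% of those counted. Arm 3L was close to that, with 40.0% of its peaks in 26 such windows, while 2L had 22.8% in 10 and 3R 24.3% in 18.

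The fullest 100-kb windows of X were chrX:12500001-12600000, chrX:15600001-15700000 and chrX:19500001-19600000, with 13 peaks each. Another 3 windows held 10 or 11 peaks, at chrX:10600001-10700000, chrX:6700001-6800000 and chrX:12600001-12700000. The longest unbroken series of windows that each held a peak was chrX:14700001-16700000, with 20 windows and 78 peaks. The longest such series held 18 windows and 36 peaks on 2L, 13 windows and 52 peaks on 3L, and 14 windows and 47 peaks on 3R.

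Long stretches without a peak took up most of X. Between the edges of neighbouring peaks, 64 gaps were longer than 100 kb, and they summed to 12.4 Mb, or 55.9% of the span from the first to the last peak. The share was 66.7% on 2L (74 gaps), 58.6% on 3L (70 gaps) and 60.8% on 3R (91 gaps). Gaps over 200 kb numbered 22 on X and took 31.0% of the span, against 36.7% on 2L, 29.1% on 3L and 28.7% on 3R. X thus had the smallest share in gaps over 100 kb of the 4 arms, but not in gaps over 200 kb. Nor did it in gaps over 50 kb, with 75.9% on X and 75.6% on 3R, so this rank depended on the limit chosen.

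The 5 longest gaps of X were chrX:21259103-21846594 (587 kb), chrX:33974-518996 (485 kb), chrX:4830720-5314426 (484 kb), chrX:11930226-12390962 (461 kb) and chrX:2622128-3055818 (434 kb). The longest and the second lay near the 2 ends of the chromosome, and the other 3 lay in its interior. Gaps over 100 kb were spread evenly over the 5 segments of X, with 12, 13, 11, 15 and 13 counted from the telomere end, although the segments differed in their number of peaks. Gaps over 200 kb numbered 5, 6, 3, 3 and 5 in the same order. The 2 segments with the most peaks, 3 and 4, were those with 3 each.

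Several long gaps lay near each other in 1 region, which was singled out after its values were seen. From the start of the gap at 2.6 Mb to the end of the gap at 5.3 Mb (chrX:2622128-5314426), X held 6 of its 22 gaps over 200 kb. These took 72.2% of the 2.69 Mb of the region. It held 28 peaks, or 10.4 per Mb, and included the emptiest 1-Mb window. Its few peaks were nevertheless close to each other: 17 of the 28 (60.7%, 42.4 to 76.4%) had another within 5 kb. The interval is wide and contains the value of the whole chromosome given below. Among them were 3 groups of 3 or more close peaks, with 11 peaks in all.

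Neighbouring peaks of X had a median distance of 11.6 kb between midpoints (9.74 to 14.4 kb), with quartiles of 3.43 and 42.8 kb and a mean of 38.5 kb. The medians were 24.4 kb on 2L (18.4 to 29.7), 16.7 kb on 3L (13.9 to 20.5) and 17.5 kb on 3R (14.8 to 20.3). The interval of X did not overlap those of 2L and 3R, and it overlapped that of 3L. A denser arm has shorter distances, so the median was also set against the arm's own mean. The median of X was 0.302 of its mean, against 0.408 on 2L, 0.364 on 3L and 0.383 on 3R. The value of X was the lowest of the 4 arms, but no interval was computed for this ratio.

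On X, 304 of 577 peaks had another within 5 kb, 52.7% (48.6 to 56.7%). The share was 35.8% on 2L (31.1 to 40.7%), 44.4% on 3L (40.2 to 48.8%) and 39.4% on 3R (35.6 to 43.3%). The intervals of X and 3L met only at their edges (48.6 and 48.8%). Within 1 kb the share was 11.6% on X (9.25 to 14.5%), against 6.79% on 2L, 9.92% on 3L and 10.0% on 3R, and the intervals of X and of each arm overlapped. Isolated peaks, those with no other within 20 kb, were 104 on X (18.0%, 15.1 to 21.4%), against 34.5% on 2L, 26.8% on 3L and 23.9% on 3R (20.7 to 27.4%). Peaks more than 100 kb from any other numbered 6 on X (1.04%, 0.477 to 2.25%), against 21 on 2L (5.48%), 15 on 3L (2.98%) and 17 on 3R (2.80%). The interval of X overlapped those of 3L (1.81 to 4.85%) and 3R (1.76 to 4.44%), but not that of 2L.

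**Figure D2:**
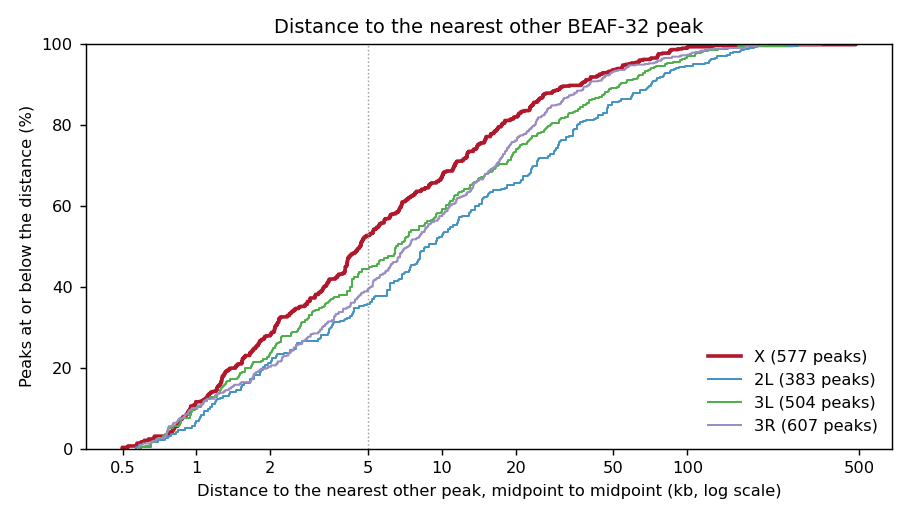
Share of peaks (%) whose nearest other peak lies at or below a given distance (kb between midpoints, log scale), for X (thick line), 2L, 3L and 3R, with 5 kb marked by the dotted line. The X line is above the others from 2 to 20 kb, with 52.7% at 5 kb against 35.8, 44.4 and 39.4%.

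Among windows with like numbers of peaks, X had the largest share of close neighbours of the 4 arms in the windows below 30 peaks, and not in the fuller ones, a comparison chosen after the data were seen. In the 11 windows of X with 20 to 29 peaks, 49.8% of peaks (137 of 275, 44.0 to 55.7%) had another within 5 kb. In such windows the share was 37.9% on 2L (8 windows), 37.2% on 3L (31.3 to 43.4%, 10 windows) and 36.1% on 3R (30.3 to 42.3%, 10 windows). Single windows varied widely, from 31.8 to 77.8% on X and from 12 to 58.6% on the other arms, so the windows of X and of the other arms overlapped. In the windows with 30 or more peaks the share was 56.2% on X, against 57.9% on 2L, 61.0% on 3L and 41.3% on 3R, so that 2 of the other 3 arms were above X. In windows with fewer than 20 peaks it was 53.3% on X (40 of 75 peaks, 42.2 to 64.2%), against 19.4% on 2L, 43.4% on 3L and 42.6% on 3R. The windows of this class held 12 to 17 peaks on X, 5 to 15 on 2L, 9 to 19 on 3L and 6 to 19 on 3R. Density was therefore not alike between the arms in this class.

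Groups of close peaks were formed by linking neighbours whose midpoints lay at most 5 kb apart. On X, 273 peaks stood alone, 67 groups had 2 peaks, 23 had 3, 8 had 4 and 11 had 5 or more. The 42 groups of 3 or more held 170 peaks, or 29.5% of the X peaks (25.9 to 33.3%). The spans of these groups summed to 332 kb. The same groups held 17.5% of the peaks on 2L (19 groups), 23.4% on 3L (29 groups) and 16.6% on 3R (26 groups). Per Mb there were 1.89 such groups on X (1.36 to 2.56), against 0.831 on 2L (upper bound 1.30), 1.25 on 3L (0.835 to 1.79) and 0.935 on 3R (0.611 to 1.37). The intervals of X and 2L did not overlap, that of 3R met that of X at its edge, and that of 3L overlapped it.

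**Figure D3:**
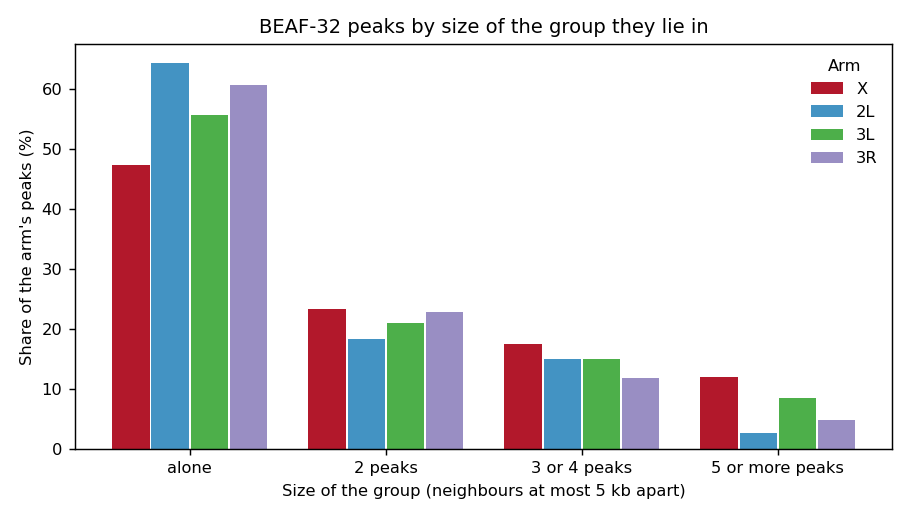
Share of each arm's peaks (%) that stand alone or lie in groups of 2, of 3 or 4, or of 5 or more peaks, with neighbours linked at up to 5 kb between midpoints. On X, 47.3% stand alone and 17.5% lie in groups of 3 or 4.

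The 3 largest groups of X had 8 peaks each, and differed in how tightly they were packed. The first, chrX:6754148-6765138, held its 8 peaks in 11.0 kb, with a median distance of 1.28 kb between midpoints and 51.9% of its span inside peaks. Its widths, in order along the chromosome, were 414, 679, 980, 750, 679, 734, 598 and 871 bp, so that the first peak was the narrowest and none exceeded 1000 bp. The second, chrX:9042505-9054865, spanned 12.4 kb with a median distance of 1.17 kb, and its widths ran from 404 to 714 bp. The third, chrX:12629113-12650833, was the longest of all 42 groups, with 21.7 kb, a median distance of 2.02 kb and 24.7% of its span inside peaks. It opened with a peak of 1297 bp, and its other 7 peaks were 440 to 840 bp wide.

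The next groups were chrX:8784925-8792543, with 7 peaks in 7.62 kb, and chrX:12553810-12563304, with 6 peaks in 9.49 kb. The group of 7 was the most closely packed of these 5, with a median distance of 1.02 kb and 64.2% of its span inside peaks, and it contained a peak of 1556 bp among 6 peaks of 379 to 678 bp. Other groups of 6 lay at chrX:14962163-14974566 and chrX:5604522-5620485. X had 7 groups of 6 or more peaks, against 0 on 2L, 3 on 3L and 3 on 3R, but the largest single groups were on 3L (13 peaks) and 3R (11 peaks). Over all groups of 3 or more, the median span was 7.75 kb on X and 6.96, 6.87 and 6.48 kb on 2L, 3L and 3R.

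Groups of 3 or more were spread along most of X. The 5 segments held 6, 5, 11, 10 and 10 of them, counted from the telomere end, and 19 of the 22 full 1-Mb windows held the centre of at least 1. On the other arms, 13 of 22 windows of 2L, 7 of 23 windows of 3L and 10 of 27 windows of 3R held none, against 3 of 22 on X. The longest distance between the centres of neighbouring groups was 1.94 Mb on X, from 3.67 to 5.61 Mb, against 3.82 Mb on 2L, 3.65 Mb on 3L and 4.07 Mb on 3R. Window 20 of X, the fullest of the chromosome, held the most groups, with 4.

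Groups also lay next to each other in longer peak-rich stretches. When X was divided at every gap over 50 kb, a division added after the data were seen, it fell into 128 stretches, of which 37 were single peaks. The 13 stretches with 10 or more peaks held 197 peaks (34.1%) in 8.47% of the length of X. The fullest was chrX:12466930-12679281, with 27 peaks in 212 kb. It contained 3 groups of 3 or more, among them the group of 8 and the group of 6 at 12.6 Mb described above, and its first peak lay 76.0 kb, between midpoints, from the single peak that followed the gap of 461 kb.

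The next 2 stretches had 21 peaks each, at chrX:19472165-19645363 (173 kb) and chrX:15597610-15804345 (207 kb), and each contained 3 groups of 3 or more. The fullest stretch on the other arms held 23 peaks on 2L, 24 on 3L and 15 on 3R. On 3L the stretches with 10 or more peaks held 35.3% of the arm's peaks, close to X, and on 2L and 3R they held 27.4 and 23.6%. Stretches made of a single peak were 28.9% on X and 27.3% on 3R, against 43.7% on 2L and 42.3% on 3L.

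Some neighbours on X almost touched. In 53 cases among the 577 X peaks the gap between their edges was 500 bp or shorter. There were 29 such cases among the 383 peaks of 2L, 42 among the 504 of 3L and 47 among the 607 of 3R. Set against these totals the arms differed little, so such pairs were not particular to X. The smallest gap of X was 16 bp, between chrX:18264698-18265459 and chrX:18265476-18266024. The next were gaps of 26 bp after chrX:9473232-9473845, 30 bp after chrX:8784925-8785516, 41 bp after chrX:5608753-5609600 and 42 bp after chrX:9049667-9050194. Of these 5 pairs, 4 lay in groups of 4 to 8 peaks. Whether the 2 peaks of such a pair are separate sites cannot be told from the list.

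The median X peak was 630 bp wide (608 to 661 bp). The quartiles were 505 and 801 bp, and widths ranged between 313 and 2159 bp. The medians were 653 bp on 2L (620 to 683 bp), 654 bp on 3L (636 to 675 bp) and 679 bp on 3R (653 to 698 bp), with intervals that all overlapped that of X. Peaks under 500 bp were 24.1% on X (20.8 to 27.7%), against 23.8% on 2L, 21.0% on 3L and 20.3% on 3R. Peaks over 1000 bp were 12.5% on X (72 peaks, 10.0 to 15.4%), against 13.3, 15.3 and 16.5% in the same order. Widths depend on the fragment length and on the peak caller, which is not given in the sources used here.

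Width changed little with position on X. The 5 segments had medians of 645, 632.5, 623, 625.5 and 650 bp from the telomere end, with intervals that all overlapped. Spearman's rho between position and width over the 577 peaks was 0.01, a description of peaks that share 1 chromosome. On 2L the first segment had a median of 715 bp (669 to 797 bp) and segment 4 a median of 587 bp (498 to 698 bp). By 1-Mb window, the X medians ran from 526 bp in chrX:14000001-15000000 (21 peaks) to 764 bp in the next window, chrX:15000001-16000000 (37 peaks). That second window also held 12 of the 72 X peaks over 1000 bp, the most of any window of X, while the first held none.

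**Figure D4:**
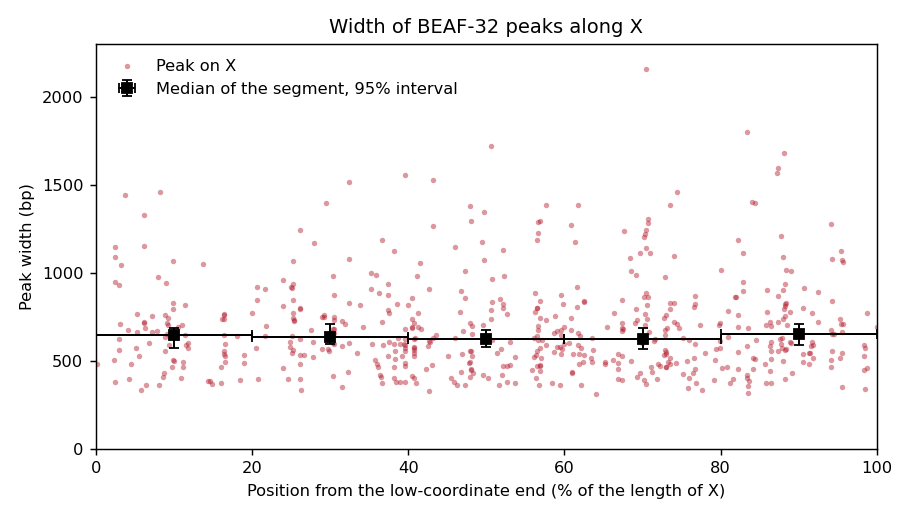
Width (bp) of each X peak by its position from the telomere end (% of the length of X), with the median and its 95% interval (vertical bars) in 5 equal segments (horizontal bars). The segment medians lie between 623 and 650 bp.

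The 5 widest X peaks were chrX:15640583-15642741 (2159 bp), chrX:18533283-18535080 (1798 bp), chrX:11243882-11245603 (1722 bp), chrX:19577065-19578746 (1682 bp) and chrX:19387602-19389199 (1598 bp). All 5 lay beyond 11 Mb, and 4 of them belonged to groups of 3 or 4 peaks. The 5 narrowest were chrX:14216762-14217074 (313 bp), chrX:18544214-18544532 (319 bp), chrX:9473872-9474202 (331 bp), chrX:5835878-5836210 (333 bp) and chrX:1285533-1285866 (334 bp). Of these, 3 stood alone, with the nearest other peak 84.4, 24.9 and 49.5 kb away. The peak of 331 bp was the second member of the pair separated by 26 bp.

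Width differed with the distance to the nearest other peak, though not in 1 direction throughout. X peaks that stood alone had a median of 600 bp (566 to 630 bp), those in pairs 643.5 bp (602 to 711 bp) and those in groups of 3 or more 685 bp (629 to 734 bp). By distance, the median was 707.5 bp (650 to 794 bp) for a neighbour at 1 to 2 kb, 671 bp at 2 to 5 kb, 660 bp at 5 to 10 kb, 589.5 bp (541 to 627 bp) at 10 to 20 kb and 566 bp (494 to 608 bp) at 20 to 50 kb. Beyond 50 kb it was 599 bp (481 to 691 bp, 37 peaks). Peaks with a neighbour within 1 kb had a median of 594 bp (554 to 644 bp). Since no peaks overlap, midpoints within 1 kb limit the widths of both peaks, so this class is narrow partly by its definition. Peaks under 500 bp made up 40.3% of the X peaks with the nearest other at 20 to 50 kb and 16.7% of those with one at 1 to 2 kb.

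The other arms had a like course with distance, with 1 class apart. On 2L, 3L and 3R together the medians were 717 bp at 1 to 2 kb, 707 bp at 2 to 5 kb, 674.5 bp at 5 to 10 kb and 618 bp at 20 to 50 kb. At 10 to 20 kb, the median was 589.5 bp on X (86 peaks) and 701.5 bp (663 to 738 bp) on the other arms together (236 peaks). It was the only 1 of the 7 distance classes in which these 95% intervals did not overlap. Taken singly, the interval of 2L (698 bp, 618 to 738 bp) did overlap that of X. Those of 3L (731.5 bp, 656 to 797 bp) and 3R (684 bp, 632 to 777 bp) did not. In groups of 5 or more peaks the median was 678 bp on X (598 to 744 bp, 69 peaks) and 811.5 bp on the other arms together (722 to 896 bp, 82 peaks). Arm 3L gave 43 of those 82 peaks, with a median of 889 bp, while the intervals of 2L (782.5 bp, 540 to 1298 bp) and 3R (773 bp, 583 to 867 bp) overlapped that of X. Such groups were few, 11 on X and 12 on the other 3 arms, and their peaks share a place on the chromosome. Within X groups of 3 or more, the outermost peaks and the inner peaks had medians of 679 and 689.5 bp.

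**Figure D5:**
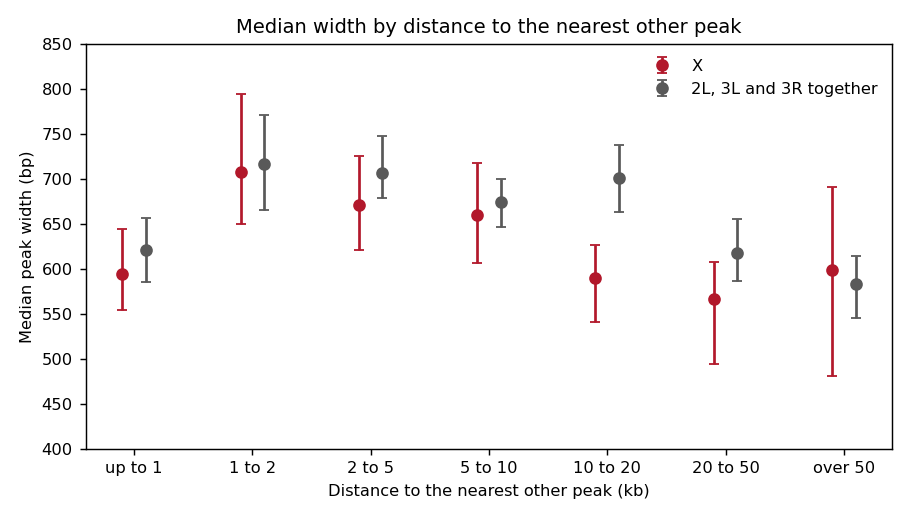
Median peak width (bp) with its 95% order-statistic interval by distance to the nearest other peak (kb), for X (red) and for 2L, 3L and 3R together (grey), on an axis that starts at 400 bp. At 10 to 20 kb the medians are 589.5 bp on X and 701.5 bp on the other arms together.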

How the data were processed

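The deposited data are 1 headerless list of peak positions in bp, with a sequence name, a start and an end in its 3 columns. Bowtie 0.12.5 is the tool named, per the submitters' processing notes. How the peaks were called, with which threshold, how the input entered, whether libraries were pooled and on which build is not given in the sources used here. No genome of the build was used, so no gene or sequence was assigned to a peak.

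Counts, distances, gaps, groups and widths were computed with Python 3.11.15, numpy 2.4.6, pandas 2.3.3 and scipy 1.17.1. Width is the deposited end minus the deposited start (which counts from 0, while printed starts count from 1), windows count midpoints, and only full windows were used. The steps were tested on 200 simulated layouts with known groups, all of which were recovered. These groups were made with close members and wide gaps between groups. The test therefore checked the code only, and not the choice of 5 kb or groups near that limit. Alternatives were merging of peaks within 500 bp, a minimum width of 500 bp, other windows, linking distances, arm lengths and single comparison arms. Named regions follow a rule: the 5 widest and 5 narrowest peaks, the 5 longest gaps, the 5 largest groups, the 5 closest pairs, and the 3 fullest and emptiest 1-Mb windows. Other regions were picked once their values were known. The members and lists were chosen with earlier results of these data known.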

Additional observations from a re-analysis of the deposited data

How the results depend on the processing

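Of 46 values obtained for 12 results under other settings, 36 stayed near the reported value and 10 moved. Near meant within its interval or, for counts, gaps and the variance to mean ratio, within 1.5 times of it. The width difference is the X median minus that of 2L, 3L and 3R together, which was -33 bp. For it, near meant within the half-width of the X median's interval. A change of direction could be recorded only for the width difference, which kept its sign under every setting, from -16.5 to -49 bp. The X density was 26.0 peaks per Mb as deposited, 23.6 with peaks within 500 bp merged and 19.7 among peaks of 500 bp or more. The ratio of X to 2L, 3L and 3R together was 1.29 in density, 1.55 with 2L alone as the comparison (16.7 peaks per Mb), 1.20 with 3L alone (21.7) and 1.19 with 3R alone (21.8). With merging, the median distance was 14.8 kb and the share with another within 5 kb was 44.3%, against 26.0% on 2L, 35.5% on 3L and 29.5% on 3R. The share was 28.2% within 2 kb and 67.1% within 10 kb. Groups of 3 or more linked at 2 kb numbered 16 on X, against 3 on 2L, 10 on 3L and 13 on 3R. The median X width was 600 bp for peaks with no other within 5 kb and 668.5 bp for the rest. Merging, the width minimum and other linking distances change the number of peaks or links by construction. No paired analysis was possible because the list has no value per library, and for that reason no library could be left out. Depth is unknown and sets which weak sites are listed.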

Other observations

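Next to the 577 peaks of X, the list holds 1 peak on XHet, the sequence of mapped X heterochromatin, at positions 84646 to 85124 (479 bp). It entered none of the comparisons.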
